A study of Rattus norvegicus with 30 samples.

Results

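Baseline gene expression in the rat hippocampus was described from the 15 control arrays of a series of 30. The arrays were chosen by their titles, as all those of rats given phosphate-buffered saline (PBS) and killed 1, 6, 24, 72 or 240 h later, with 3 arrays at each of the 5 times. The other 15 arrays came from rats given kainate, a glutamate receptor agonist that causes seizures, and entered no value below. Total RNA was hybridised to Affymetrix arrays that give 1 signal per probe set, a group of short probes for 1 transcript. The labels name the species, the tissue, the treatment and the time, but no strain, sex or age, and do not say whether replicate arrays came from separate animals, so the spread between arrays may be partly technical.

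The hippocampus forms and retrieves memories. Its principal neurons, the granule cells of the dentate gyrus and the pyramidal cells of the hippocampus proper, release glutamate, and local interneurons that release GABA and peptides hold them in check. Astrocytes clear glutamate, oligodendrocytes wrap axons in myelin, and microglia are the resident macrophages. The choroid plexus, which makes cerebrospinal fluid and secretes transthyretin, hangs in the ventricle beside the tissue and can come along in a dissection. In RNA from whole tissue, fewer cells of a type and less RNA per cell cannot be told apart.

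The arrays were alike in their trimmed mean signal, from 150.1 to 150.2, and pairs of arrays correlated with r from 0.935 to 0.984 over log2 signals. Pairs within the 6 and 72 h arrays had a median r of 0.979, those within the 1, 24 and 240 h arrays 0.954, and pairs between these 2 sets 0.956. Some control values moved with this split and others did not. The 3′ over 5′ ratio of hexokinase, a check of RNA and labelling quality, averaged 0.92 ± 0.27 in log2 at 6 and 72 h (SD, 6 arrays) and 1.38 ± 0.40 at the other times (9 arrays), and that of beta-actin 0.45 ± 0.12 at 6 and 72 h and 0.62 ± 0.13 at the other times. The ratio of GAPDH averaged -0.06 ± 0.07 at 6 and 72 h and -0.02 ± 0.14 at the other times, a difference within the spread. The CreX spike-in averaged 3843 ± 156 at 6 and 72 h and 5599 ± 590 at the other times. The median signal of an array also differed despite the equal trimmed means. It averaged 58.4 ± 1.56 at 6 and 72 h and 53.2 ± 2.77 at the other times.

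Levels are given as the mean signal of a gene, which is 2 to the power of its mean log2 signal over the 15 arrays, with the SD of log2 values. A gene with several probe sets is given by the one with the highest mean. Signals under 10.7, the 20th percentile over all 15 arrays, were raised to that floor, and a signal of 35.1, the 40th percentile, served as the upper mark. On the same arrays 23 control probe sets for bacterial, yeast and mouse sequences, which rat RNA should not light, never passed the upper mark: their highest value was 30.2, and 271 of 345 values lay at the floor. Another 15 control probe sets, whose names end in _st, had a median of 22.3 and reached 111, and 76 of their 225 values (33.8%) passed the upper mark. Of 4736 genes, 2449 (51.7%) lay above the upper mark on all 15 arrays, 193 (4.08%) lay at the floor on all of them, and 922 (19.5%) never passed the upper mark.

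Signal was concentrated in few genes. The median gene had a mean signal of 68.5, the 90th percentile was 487 and the 99th percentile 2162. The 30 genes with the highest means held 12.4% of the summed mean signal and the first 100 held 26.4%. A rank reflects the probe set as well as the transcript. In the 1565 genes with several probe sets, the means of the highest and lowest probe set lay a median of 1.35 apart in log2, and in 260 of them (16.6%) more than 3 apart. In 50 genes 1 probe set passed the upper mark on every array while another was at the floor on every array. Ranks between genes are therefore a description of these signals, and were not tested.

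Genes of mitochondrial respiration led the list. COX1, a subunit of cytochrome c oxidase encoded in the mitochondrial genome, had the highest mean signal, 5994 (log2 SD 0.17, n = 15), with a lowest, median and highest array of 5142, 5843 and 7568. COX3 followed with 5830.0 (log2 SD 0.15), and COX2 had 4276 (log2 SD 0.30). The nuclear subunits Cox8a, Cox4i1 and Cox6a1 had 4048, 3731 and 2994. Of 54 nuclear oxidative phosphorylation genes, 51 lay above the upper mark on all arrays, with a median signal of 675. The highest group thus holds both genomes' subunits of the same complex.

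Several of the other leading genes serve ion transport and neuronal signalling. Atp1b1, the beta subunit of the sodium pump, had a mean signal of 5058 (log2 SD 0.15), and its 15 arrays lay between 4437 and 6022. Gnas, the stimulatory G protein alpha subunit, had 4906. Atp6v0c, a subunit of the proton pump that acidifies synaptic vesicles, had 3822, and Cpe, which processes neuropeptide precursors, had 3323. The 14-3-3 adaptor genes Ywhah and Ywhaz had 4759.8 and 3022. Thy1, a surface glycoprotein of neurons, had 3032 (log2 SD 0.17), and the brain creatine kinase Ckb had 3229.

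Glial and secreted products stood among them. Sparc, an extracellular matrix glycoprotein, had 5228 (log2 SD 0.20), although its 3 other probe sets averaged 1029, 455 and 396. Mbp, a main protein of compact myelin, had 4851 (log2 SD 0.22), and Apoe, the lipid carrier made by astrocytes, had 4750.5 (log2 SD 0.26). Cst3, a secreted protease inhibitor, had 4561, and Psap, the precursor of lysosomal saposins, 4148. Cytoskeletal genes completed the group, with Actb at 4571, Actg1 at 4172, the thymosin gene Tmsb4x at 4501 and the tubulin gene Tuba1b at 4052. Nnat, an imprinted gene of neurons, closed the 30 at 2862 (log2 SD 0.16).

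Markers of neurons and of most glia were high, as the plot of list members shows. All 16 measured neuron markers passed the upper mark on every array, with a median signal of 1264, and so did all 13 astrocyte markers (median 1586), all 7 oligodendrocyte and myelin genes (median 907) and all 5 markers of oligodendrocyte precursors (median 210.3). Among neuron markers Uchl1, a ubiquitin hydrolase, had 2293, the neurofilament gene Nefl 2124 (log2 SD 0.13), and the synaptic vesicle gene Syp 1622 (log2 SD 0.14). Among astrocyte markers the matricellular gene Sparcl1 had 2779, clusterin (Clu) 2121, the glycolytic enzyme gene Aldoc 2045 and glutamine synthetase (Glul) 1991. The glutamate transporter gene Slc1a2 was the lowest of the astrocyte list at 76.8 (log2 SD 0.34), from the highest of its 4 probe sets.

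**Figure D1:**
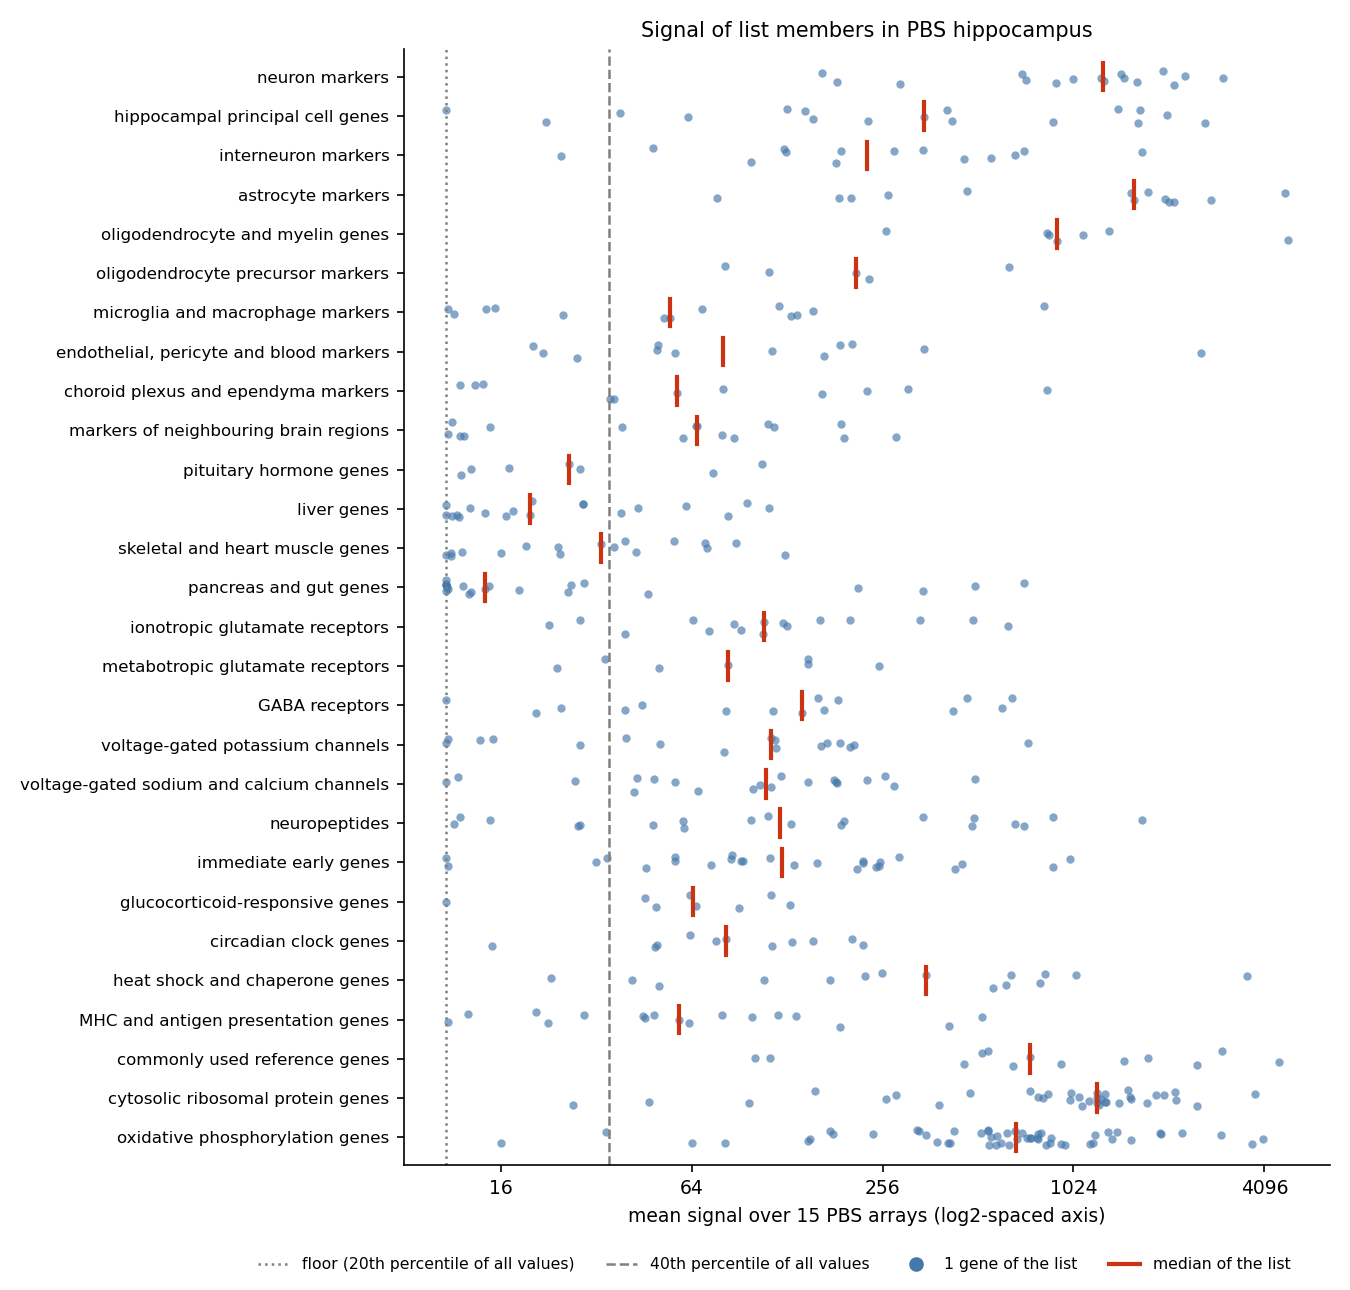
Mean signal over the 15 PBS arrays on a log2-spaced axis for the members of 28 gene lists, 1 point per gene, with the median of each list as a red bar. The dotted line is the floor (10.7) and the dashed line the upper mark (35.1). Lists of neurons, astrocytes, myelin, ribosomal proteins and oxidative phosphorylation lie to the right, and lists of liver, pituitary, muscle, pancreas and gut genes lie mostly near or left of the dashed line.

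Most genes of the principal cells, which define the labelled tissue, were well above the upper mark. Of 17 measured, 14 passed the upper mark on every array, with a median signal of 345. Nrgn, a calmodulin-binding protein of dendritic spines, had 2656 (log2 SD 0.19), the calcium sensor gene Hpca 1662 (log2 SD 0.24), the kinase subunit gene Camk2b 2023 and the calcineurin gene Ppp3ca 1635. Calb1, a calcium buffer of granule cells, had 407 (log2 SD 0.38) and the transcription factor gene Neurod1 230.2. Against the label, the vesicular glutamate transporter gene Slc17a7 was at the floor on all 15 arrays by its only probe set, and Camk2a, an abundant kinase of these neurons, had a mean signal of 62.3 from the higher of its 2 probe sets. These values bound what those probe sets report and not the transcripts.

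Interneuron markers passed on every array in 12 of 14 cases, with a median of 229. Somatostatin (Sst) had 1685 (log2 SD 0.32), cholecystokinin (Cck) 717 (log2 SD 0.33), the GABA-synthesising enzyme gene Gad1 668 (log2 SD 0.19), the vesicular GABA transporter gene Slc32a1 563 and reelin (Reln) 461. Neuropeptide Y (Npy) had 343 and parvalbumin (Pvalb) 182 (log2 SD 0.13). The neuropeptide list reached from Sst down to galanin (Gal) at 11.4, with 13 of 20 members above the upper mark throughout. Prodynorphin (Pdyn), made by granule cells, had 669 (log2 SD 0.21).

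Microglia markers gave lower signals, and vessel and blood genes were mixed. Of 13 microglia and macrophage markers 6 passed on every array and 4 never passed, with a median of 54.5. Cathepsin S (Ctss) was highest at 827 (log2 SD 0.42), followed by lysozyme (Lyz2) at 155 and the complement gene C1qc at 138, while Cd74, the invariant chain of MHC class II, was at the floor on 14 arrays. Of 12 vessel and blood genes 7 passed on every array and 1 never passed, with a median of 80.4, against 68.5 for all genes. Among them the beta globin gene Hbb was highest at 2577 (log2 SD 0.47). The glucose transporter gene Slc2a1 of the blood-brain barrier had 346, and Vwf, made by endothelium, was the lowest at 20.2. Of 17 MHC and antigen presentation genes 7 passed on every array, led by B2m at 525 (log2 SD 0.18).

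Receptors and channels lay around or above the median gene. For ionotropic glutamate receptors 11 of 16 passed on every array (median 108). The AMPA receptor genes Gria1 and Gria2 had 635 (log2 SD 0.31) and 495 (log2 SD 0.20), the kainate receptor gene Grik5 had 335, and the NMDA receptor genes Grin2c and Grin2b had 202 and 163. Grik1, another kainate receptor gene, never passed the upper mark. Of 7 metabotropic glutamate receptors 4 passed throughout, led by Grm3 at 249.

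For GABA receptors 9 of 15 passed on every array (median 143). The GABA-B receptor genes Gabbr2 and Gabbr1 had 657 and 607, and the GABA-A genes Gabrb2 and Gabra5 had 473 and 427, while Gabrr2, a rho subunit known from the retina, was at the floor on all 15 arrays. Potassium channel genes passed throughout in 10 of 17 cases (median 114), led by the accessory subunit gene Kcnab2 at 734, and Kcnq1, known from heart and inner ear, was at the floor on all arrays. Sodium and calcium channel genes passed throughout in 12 of 20 cases (median 109.6), led by Scn2a at 500.0 (log2 SD 0.21).

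Immediate early genes, which neurons switch on within minutes of activity, had measurable signals without kainate. Of 26 measured, 20 passed on every array, with a median of 123. Egr1, a zinc finger transcription factor, had lowest, median and highest signals of 803, 982 and 1269.7, the synaptic gene Arc 334, 491 and 588, and Fos 173, 252 and 446. Egr3 was at the floor on all 15 arrays. The 3 arrays of Fos at 1 h were 252, 446 and 228, so its highest value of the 15 came from 1 h replicate 2, where Arc was also at its highest. That array stood apart, with 34 probe sets over 1 log2 unit above all other arrays, against a median of 5 per array, and the lowest median correlation with the others (0.947). The growth factor gene Bdnf had 85.9 (log2 SD 0.21) from the highest of its 7 probe sets.

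Chaperones were high, with 12 of 15 above the upper mark on every array and a median of 351. Hsp90ab1 had 3613 (log2 SD 0.16), and the stress-inducible Hspa1a, an Hsp70 gene, had 41.5 (log2 SD 0.25). Of 8 glucocorticoid-responsive genes 6 passed throughout, led by the kinase gene Sgk1 at 131, and Pdk4 was at the floor on all arrays. Of 11 clock genes 8 passed throughout, led by the output factor gene Tef at 222. Of 36 ribosomal protein genes 34 passed throughout, with a median of 1212.

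Genes of other organs gave the low end of the scale. Of 19 liver genes 3 passed on every array and 7 never passed (median 19.8). Albumin (Alb) had 20, and the amino acid enzyme gene Tat and the cytochrome gene Cyp3a2 were at the floor on all 15 arrays. Of 21 pancreas and gut genes 13 never passed (median 14.3), and Atp4b, Fabp1, Iapp and Si were at the floor on all arrays. Of 17 muscle genes 3 passed throughout (median 33.1), and of 7 pituitary hormone genes 2 did (median 26.3).

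Some exceptions had high signals from 1 probe set. The insulin gene Ins2 had 501 (log2 SD 0.31) by 1 of its 3 probe sets, whereas its other probe sets were at the floor on 14 and 12 of 15 arrays. Ins1 had 215 by 1 of 3, with the others at 28 and 27.9. The lipase gene Pnlip had 343 (log2 SD 0.39). Cck, on the gut list as a hormone, is also a peptide of interneurons.

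Markers of structures next to the hippocampus were mixed. Of 16 markers of neighbouring regions 7 passed on every array and 5 never did (median 66.5). The dopamine receptor gene Drd2 of the striatum was at the floor on 11 arrays, and the hypothalamic peptide genes Pmch and Oxt never passed, while Hcrt, another hypothalamic peptide gene, had 194 (log2 SD 0.28). The summed signal of this list ranged from 1055 to 1639.9 over the arrays.

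CpG-rich promoters were more frequent among genes above the upper mark on all arrays than in the other classes. In the RefSeq promoter table (assembly GRCr8), 3871 of the 4736 genes had the 250 bases before the gene start. A ratio of observed over expected CpG of at least 0.6 was found in 70.8% of genes above the upper mark on all arrays (1432 of 2024), in 41.2% of genes between the classes (696 of 1690) and in 33.1% of genes at the floor on all arrays (52 of 157). The share was 76.7% in the highest 10% of genes by mean. It was 56.3% over all 3871 genes of the array with a promoter (2180), and 35.4% over all 27456 promoters of the table. A TATAAA on the gene's strand that lay wholly within 40 to 15 bases before the start was found in 2.17% of genes above the mark throughout. It was found in 4.67% of those between and 4.46% of those at the floor, against 3.36% of the 3871 genes and 1.5% of all promoters of the table. These shares are descriptions and were not tested.

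**Figure D2:**
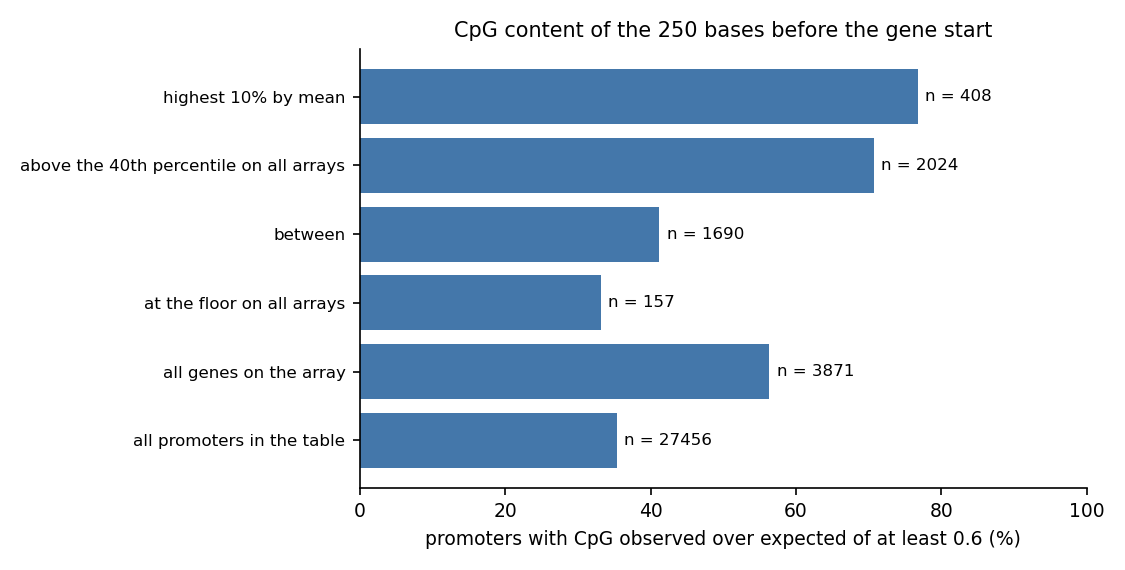
Share of promoters (250 bases before the gene start) with a CpG observed over expected ratio of at least 0.6, in percent, by level class of the gene on the PBS arrays, with the number of promoters beside each bar. The bar falls to 33.1% for genes at the floor on all arrays, against 70.8% for genes above the 40th percentile on all arrays.

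Most abundant genes varied little between arrays. Over the 2449 genes above the upper mark throughout, the median SD of log2 signal was 0.28, and its 5th and 95th percentiles were 0.16 and 0.48. The median SD was 0.24 in the highest and 0.32 in the lowest of 5 equal groups of these genes by level. Within times the median SD was 0.22, and differences between times held a median 49.5% of the sum of squares, where 28.6% is expected with none.

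Fyn, a Src family kinase of synapses and oligodendrocytes, had the smallest SD, 0.08, with lowest, median and highest signals of 574, 632 and 706. Stard3, a sterol transfer protein of late endosomes, followed at 0.09 (286 to 349.7), and Atp5f1b, the beta subunit of ATP synthase, combined a signal of 2246 with an SD of 0.10. Myl12b, Mfn2, Cbs, Prkcz, Anxa5, Eif2s1 and Ctbp1 completed the 10, with SDs from 0.09 to 0.11. None of the 13 commonly used reference genes was among these 10 of 2449 genes, a cut that few genes can meet. Their SDs ran from 0.16 for Actb to 0.44 for Tfrc, with 0.24 for Ywhaz and 0.32 for Hprt1. The median SD of the reference genes was 0.25, against 0.28 for all 2449 genes.

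**Figure D3:**
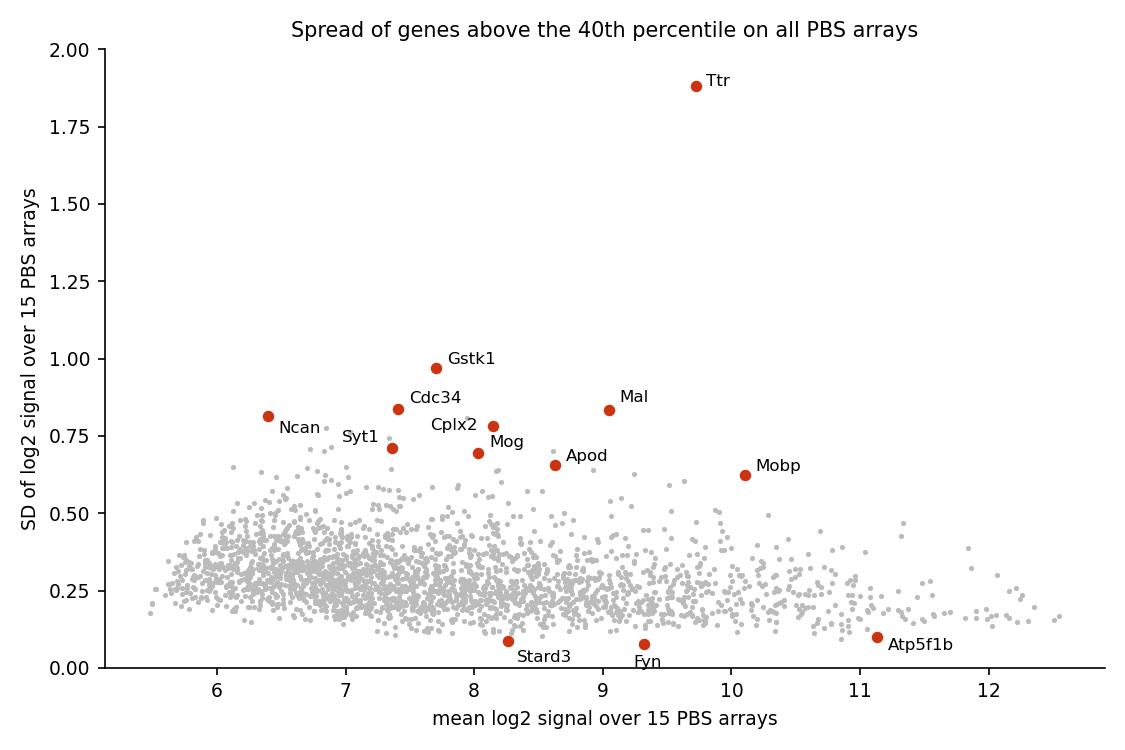
SD of log2 signal over the 15 PBS arrays against mean log2 signal for the 2449 genes above the 40th percentile on all arrays, 1 point per gene, with named genes in red. Ttr stands alone at an SD of 1.88, while most genes lie between 0.16 and 0.48.

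Transthyretin (Ttr), the thyroid hormone carrier that the choroid plexus secretes, varied most. Its signals were 125, 104 and 1927 on the 3 arrays of 1 h, 2649.8, 3894 and 1266 at 6 h and 792, 3126 and 2442 at 24 h. They were 1919, 252 and 114 at 72 h and 2746, 805 and 329.5 at 240 h. High and low arrays occurred side by side at 1, 24, 72 and 240 h, and the 3 arrays of 6 h were all high. The SD was 1.88, the second probe set gave 1.81, and leaving out any 1 array kept it at 1.75 or more. Times did not pass (limma F test over the 5 times, adjusted p = 0.137).

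The choroid plexus markers with the next highest means, Igf2, Enpp2 and Igfbp2, did not show this range. Enpp2, a secreted lysophospholipase, lay between 162 and 313 (log2 SD 0.31), the growth factor gene Igf2 between 242 and 401 (0.23) and the binding protein gene Igfbp2 between 108 and 259 (0.41). Igfbp2 passed limma's F test over the 5 times (adjusted p = 0.0232). Of the 11 measured markers 5 passed the upper mark on every array. The water channel gene Aqp1 was at the floor on 10 arrays and the potassium channel gene Kcnj13 on 12, and Kl and Calml4 had mean signals of 36.3 and 35.3. At signals this low a range like that of Ttr may not show. Aqp1 had means of 10.7, 26.5, 10.7, 10.7 and 16.2 at 1, 6, 24, 72 and 240 h. The summed signal of the list ranged from 977 to 5076, while Ttr alone ranged from 104 to 3894. The part of choroid plexus in the dissected tissue was not tested.

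**Figure D4:**
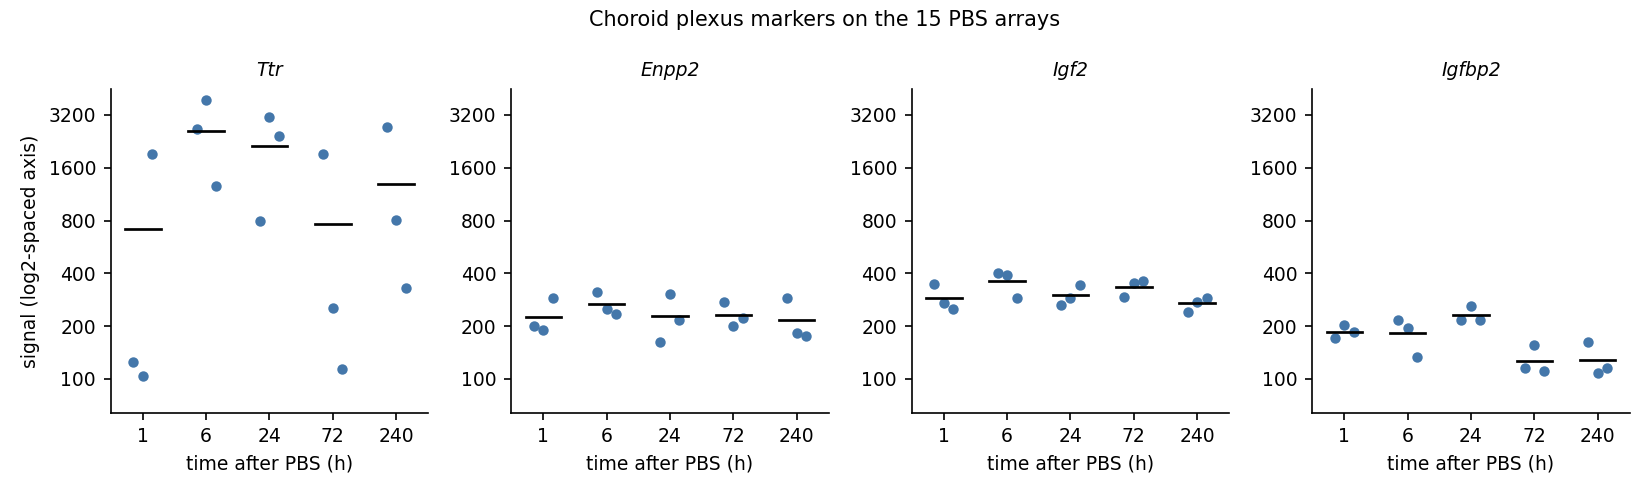
Signal of Ttr, Enpp2, Igf2 and Igfbp2 on each of the 15 PBS arrays (points, log2-spaced axis) by time after PBS in hours, with the mean of 3 arrays as a line. Ttr spans 104 to 3894 with high and low arrays at most times, and the other 3 genes stay within a narrow band.

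Besides Ttr, the 10 genes with the largest SD included enzymes, synaptic genes and a myelin gene. Gstk1, a mitochondrial glutathione transferase, had an SD of 0.97 (46.7 to 425), Cdc34, a ubiquitin-conjugating enzyme, 0.84, Pip4p1, a lysosomal lipid phosphatase, 0.81, and Cdk5r1, the activator of a neuronal kinase, 0.78. Other probe sets of these genes varied less, with SDs of 0.31 for Gstk1, 0.24 and 0.50 for Cdc34 and 0.38 for Cdk5r1. Kcnmb1 and Ces1dl1 had 0.76 and 0.74, and Ncan and Mal are described with the times. Cplx2, a regulator of vesicle fusion, had an SD of 0.78 that rested on 1 array: 24 h replicate 1 gave 46.1, the other 14 arrays gave 181 to 443, and the SD without that array was 0.30. On this array 59 probe sets lay more than 1 log2 unit below all other arrays, against a median of 13 per array. Its 3′ over 5′ ratios of hexokinase and beta-actin were the highest of the 15 (2.29 and 0.78 in log2). Its GAPDH ratio went the other way, as the lowest of the 15 (-0.36). The part of RNA quality in these values was not tested.

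Levels also differed between times. With limma's F test over the 5 times, 924 of 5927 tested probe sets passed at an adjusted p of 0.05 (15.6%), and the probe sets that stand for genes gave 556 of 3524 genes (15.8%). Among these 556 the mean was highest at 240 h in 151 genes and lowest at 240 h in 171. In 184 genes the means of 6 and 72 h both lay above those of 1, 24 and 240 h, and in 119 both lay below.

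Apod, Mobp, Mog and Mal had the smallest p of the genes. Mobp, a protein of compact myelin, had signals of 846, 746 and 961 at 1 h, 785, 736 and 721 at 6 h and 929.7, 838 and 797 at 24 h. It had 1273, 1257 and 1399 at 72 h and 2486, 2315 and 2072 at 240 h, so that all arrays of 72 h lay above the earlier ones and all arrays of 240 h above those of 72 h (limma F test, adjusted p = 1.97e-06). Of its 3 other probe sets 2 passed the same test (adjusted p = 1.1e-05 and 0.00129), and 1 did not (adjusted p = 0.788), with means of 187, 194, 177, 189 and 169 at the 5 times.

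Mog, a glycoprotein on the outer myelin surface, averaged 209 ± 18.5, 164 ± 18.2, 195 ± 14.7, 318 ± 28.6 and 589.8 ± 51.6 at 1, 6, 24, 72 and 240 h (SD, n = 3 each; limma F test, adjusted p = 2.62e-06). Its second probe set did not pass (adjusted p = 0.0804) and averaged 249 at 240 h. Mal, a proteolipid of myelin membranes, averaged 347 ± 57.2, 314 ± 69.5, 399 ± 59.5, 804 ± 26.2 and 1256 ± 275 (adjusted p = 1.37e-05). Apod, a lipid carrier of glia, averaged 289 ± 18.4, 288 ± 23.4, 287 ± 23.5, 484 ± 22.2 and 858 ± 65.8 (adjusted p = 1.97e-06). For Mog and Apod all 72 h arrays lay above all earlier arrays, and all 240 h arrays lay above those of 72 h.

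The list of oligodendrocyte and myelin genes was divided. Mal and Apod are not on it. Of 7 tested, Mobp, Mog, Cnp and Ugt8 passed the F test over the 5 times, against 15.8% of all genes. All 4 had every 240 h array above those of 1 and 24 h and passed the F test among these times, as did 85 of 3524 genes (2.41%). Cnp, an enzyme of myelinating cells, and Ugt8, which makes the myelin lipid galactosylceramide, had means of 765, 737, 869, 1066 and 1191 and of 568, 745, 742, 1173 and 1209.6 over the 5 times (adjusted p = 0.00365 and 0.000665). Mbp (4290.5, 4342, 4735, 5269 and 5897), Mag (670.0, 1009, 849, 1028 and 838) and Sirt2 (1239, 1342, 1173, 1403 and 1515) did not pass. Of 5 precursor markers, Sox10, a transcription factor of the lineage, passed (adjusted p = 0.00845).

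Other genes were lower at the late times. Latexin (Lxn), a carboxypeptidase inhibitor, had signals of 438, 409.6 and 414 at 1 h, 274, 315 and 239 at 6 h and 392, 398 and 422 at 24 h, and of 207, 203 and 189 at 72 h and 167, 156 and 188 at 240 h (limma F test, adjusted p = 1.88e-05). The arrays of 72 and 240 h all lay below those of the earlier times. The interneuron calcium buffer gene Calb2 averaged 345 ± 26.3, 338 ± 41.4, 368 ± 57.7, 239.9 ± 8.45 and 163 ± 14 (SD, n = 3 each; adjusted p = 0.000377). Tubb2b, a tubulin of immature neurons, averaged 1704 ± 95 at 240 h and 3282 ± 378 at 1 h (adjusted p = 0.000399), and the growth cone gene Gap43 averaged 803 ± 94.6 at 240 h and 1679 ± 225 at 1 h (adjusted p = 0.000718).

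Fabp5, a fatty acid carrier, and Dynlt1, a dynein light chain, followed the same order, with means of 1311, 985, 1236, 756 and 705 and of 341, 278, 334, 204 and 146 over the 5 times (limma F test, adjusted p = 8.66e-05 for each). Stmn1, a regulator of microtubules, had 1591, 1282, 1552, 1094 and 1001 (adjusted p = 0.00312). Of 16 neuron markers 7 passed the F test, against 15.8% of all genes, and they did not share a direction. Among 1, 24 and 240 h 5 of the 16 passed, against 5.68% of all genes. In 3 of them every 240 h array lay below all arrays of 1 and 24 h, as in 86 of 3524 genes. In 2 every 240 h array lay above them, as in 85 genes. Snap25, a protein of vesicle fusion, was 1 of these 2. Its arrays of 240 h (2068, 2039 and 1979) lay above all arrays of the earlier times (limma F test over the 5 times, adjusted p = 0.0118).

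**Figure D5:**
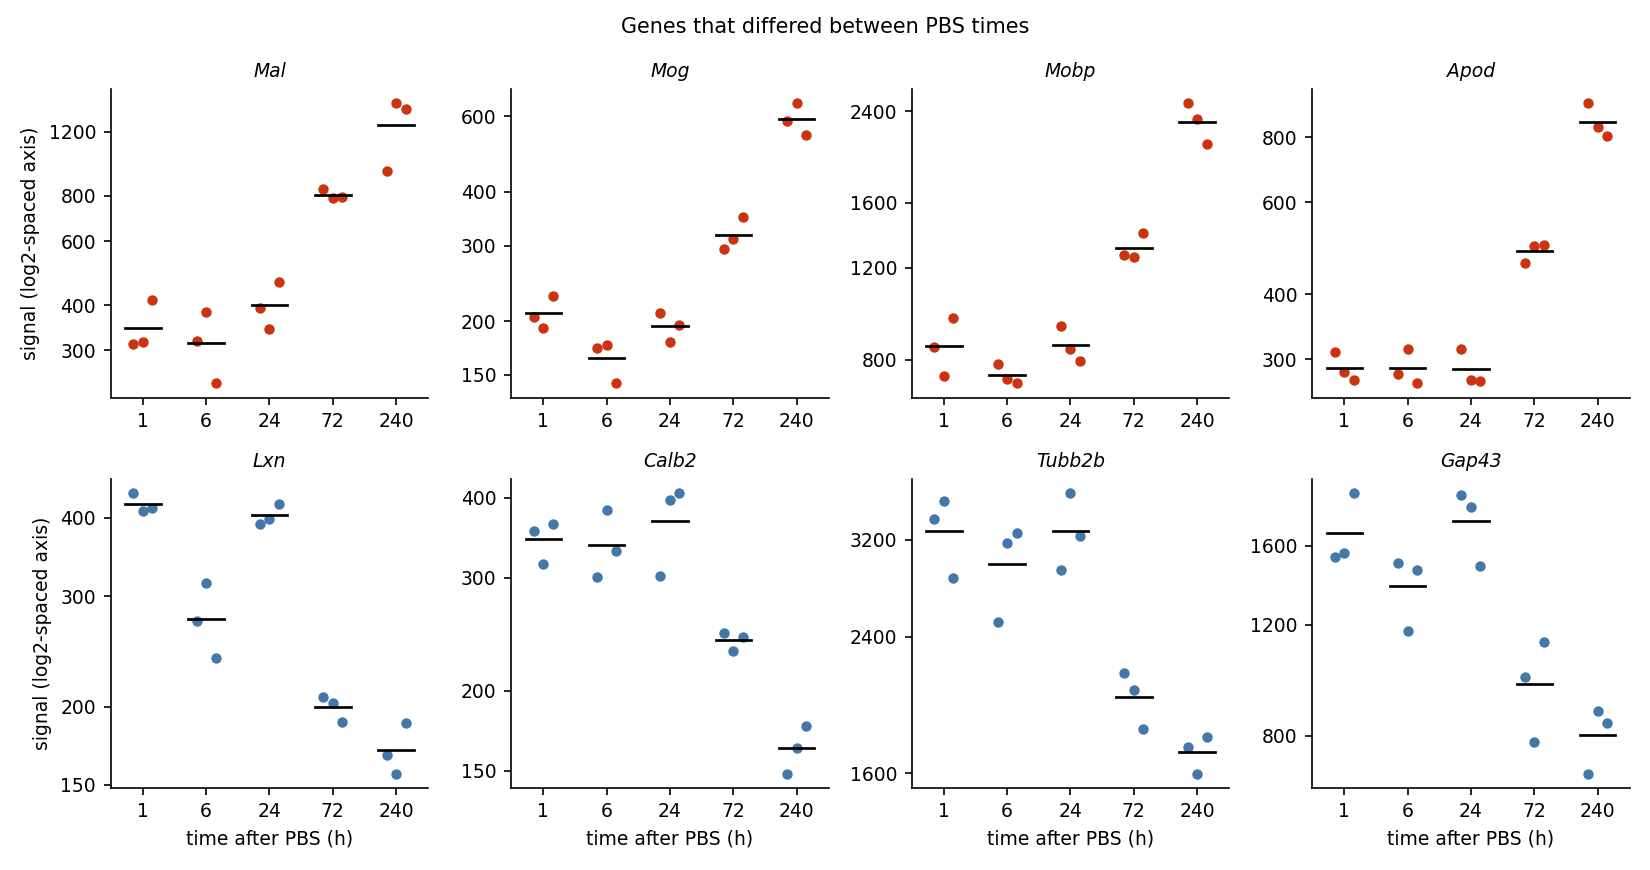
Signal of 8 genes on each PBS array (points, log2-spaced axis, scaled for each gene) by time after PBS in hours, with the mean of 3 arrays as a line. Mal, Mog, Mobp and Apod (red) are highest at 240 h, and Lxn, Calb2, Tubb2b and Gap43 (blue) are lowest there.

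The 250 bases before the gene start are shown for the genes of this group that the RefSeq table holds (GRCr8), since they moved together, and for Ttr as the most variable gene. Capitals mark 3 motifs: ACAAAG on either strand (read as CTTTGT on the other), CTGGCAC on either strand (GTGCCAG) and TATAAA on the gene's strand.
Mobp (chr8:128746982-128747231, plus strand): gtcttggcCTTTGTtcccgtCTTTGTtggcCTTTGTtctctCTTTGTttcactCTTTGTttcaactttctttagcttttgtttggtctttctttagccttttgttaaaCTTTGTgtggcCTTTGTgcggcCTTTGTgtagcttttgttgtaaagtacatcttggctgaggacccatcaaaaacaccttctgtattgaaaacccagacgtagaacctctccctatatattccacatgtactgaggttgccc
Mal (chr3:135341424-135341673, minus strand): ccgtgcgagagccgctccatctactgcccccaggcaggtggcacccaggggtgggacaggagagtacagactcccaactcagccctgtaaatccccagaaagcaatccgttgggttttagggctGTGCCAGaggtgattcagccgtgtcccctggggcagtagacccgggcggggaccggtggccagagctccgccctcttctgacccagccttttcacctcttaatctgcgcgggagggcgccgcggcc
Apod (chr11:82935970-82936219, plus strand): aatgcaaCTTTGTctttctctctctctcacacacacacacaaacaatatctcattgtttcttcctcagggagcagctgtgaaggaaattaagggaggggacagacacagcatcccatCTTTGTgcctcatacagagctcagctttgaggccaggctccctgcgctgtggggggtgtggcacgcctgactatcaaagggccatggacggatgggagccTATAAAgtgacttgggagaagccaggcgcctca
Ttr (chr18:12218508-12218757, plus strand): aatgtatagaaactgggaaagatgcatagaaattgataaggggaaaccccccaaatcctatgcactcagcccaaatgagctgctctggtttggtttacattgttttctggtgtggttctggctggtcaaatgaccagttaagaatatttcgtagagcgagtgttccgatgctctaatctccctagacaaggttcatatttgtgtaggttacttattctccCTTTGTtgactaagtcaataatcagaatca

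Mobp held CTTTGT 8 times, Apod held it at 133 and 243 bases before the start, with a TATAAA at 33, Ttr held 1 CTTTGT, and Mal held 1 GTGCCAG. The copies in Mobp lay 120 to 242 bases before the start, in a repetitive stretch. Over all 27456 promoters of the same length ACAAAG was found in 4383 (16%), CTGGCAC in 1013 (3.69%) and TATAAA in 2301 (8.38%). These shares count promoters with at least 1 copy, so the 8 copies in Mobp have no share beside them. CACGTG was searched as well and was found in 5.79% of promoters, and not in these 4. None of the 4 reached a CpG ratio of 0.6, with values of 0.281 for Mobp, 0.534 for Mal, 0.233 for Apod and 0.296 for Ttr. Mog is not among the promoters shown.

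The arrays of 6 and 72 h were more alike among themselves than the other arrays were (median r 0.979 against 0.954). Pairs between the sets (0.956) were about as alike as pairs within 1, 24 and 240 h. Since some control values also moved with this split, the times were compared within each set as well. Among 1, 24 and 240 h, 310 probe sets (5.23%) and 200 of 3524 genes (5.68%) passed limma's F test. In 85 of the genes every 240 h array lay above all arrays of 1 and 24 h (125 probe sets, 2.11%), and in 86 every 240 h array lay below them (128 probe sets, 2.16%). Apod (adjusted p = 8.8e-07), Mobp (1.71e-06), Mog (3.4e-06), Mal (2.22e-05), Lxn (1.28e-05) and Calb2 (0.000142) passed this limma test too. The count depended on the 240 h arrays: without replicate 1, 2 or 3 of that time it was 188, 162 or 186, and a fit with these 9 arrays alone gave 151.

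At 240 h the microglial gene Ctss had 1564, 1147 and 1436, against 616 to 740.4 on the arrays of 1 and 24 h (limma F test among 1, 24 and 240 h, adjusted p = 0.000131). Hbb, a transcript of red blood cells, had 4987, 3822 and 4094, against 1866 to 3422 (adjusted p = 0.00729). Of 8 tested microglia genes Ctss alone passed this test, and of 10 tested vessel and blood genes Hbb alone did, against 5.68% of all genes. The potassium channel subunit gene Kcnab2 (1132, 1007 and 1182 at 240 h, adjusted p = 0.00202) and Ncdn, a protein of dendrites (2190.3, 1955 and 2102, adjusted p = 0.000705), were also higher on every 240 h array. Sst had 1317, 1127 and 1421, below all arrays of 1 and 24 h (adjusted p = 0.00331).

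Between 72 and 6 h, 4 of 5927 probe sets passed, all of them higher at 72 h (0.0675%), and 360 (6.07%) had an unadjusted p under 0.05. They stand for Mal, Mog, Mobp and Apod, with log2 differences of 1.38, 0.96, 0.81 and 0.75 and limma adjusted p of 0.00574, 0.00574, 0.00574 and 0.0127. Their arrays of the 2 times did not overlap, which held for 14.6% of tested probe sets. With the spread taken from these 6 arrays alone no probe set passed in limma, the adjusted p of the 4 genes lay between 0.0503 and 0.0892, and 506 had an unadjusted p under 0.05. Without 72 h replicate 3 the count was 2.

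Dbp, a clock output factor, had 174, 167 and 103 at 72 h and 75.4, 46.4 and 57.4 at 6 h, which did not pass (limma adjusted p = 0.0715). Over the 5 times it did (adjusted p = 0.00417), as 1 of 6 among 10 tested clock genes, against 15.8% of all genes. Tef had means of 165, 343, 177, 319 and 175 and Nr1d1, a repressor of the clock, of 104, 139, 106, 181 and 153. Of 24 tested immediate early genes 1 passed, fewer than that share, Nr4a2 (adjusted p = 0.0148). The labels give no time of day.

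The sets of arrays were compared by 1 contrast of 6 against 9 arrays, whose count cannot be ranked against those of the F tests or of 3 against 3 arrays. Between 6 and 72 h and the other times 1169 probe sets passed (19.7%), 725 higher (12.2%) and 444 lower (7.49%), which gave 422 higher (12%) and 258 lower (7.32%) of 3524 genes. After quantile normalization the split was 449 higher and 548 lower probe sets, and 264 higher and 325 lower genes, so the balance of directions depended on the scaling. The split was known from earlier results of these data, and the times and the sets cannot be told apart. The hexokinase and beta-actin ratios, the CreX signal and the array median given above moved with it, and the GAPDH ratio did not. Their part was not tested.

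Rab14, a GTPase of membrane traffic, had 148, 141 and 123 at 6 h and 113, 110.1 and 101 at 72 h, against 207 to 314 on the other arrays (limma adjusted p = 0.000108). Ncan, the proteoglycan neurocan, had 158, 156 and 173 at 6 h and 144, 142 and 102 at 72 h, against 35.6 to 117 (log2 difference 1.29, adjusted p = 0.00013). Rhoa, a GTPase of the cytoskeleton, Cdk5r1, Tef and Ntrk2, the receptor of BDNF, were higher by 0.99, 1.35, 0.95 and 0.65 in log2, with limma adjusted p from 0.00013 to 0.000216. The arrays of Rab14, Rhoa, Cdk5r1, Tef and Ntrk2 did not overlap between the sets, as in 172 of 5927 probe sets (2.9%), and those of Ncan did. The second probe set of Cdk5r1 had means of 76.2, 119, 98.9, 99.6 and 70.3 at the 5 times. It did not pass limma's F test over these times (adjusted p = 0.104).

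In this comparison 21 of 36 ribosomal protein genes and 22 of 53 tested oxidative phosphorylation genes were lower at 6 and 72 h, against 7.32% of all genes, and 0 and 2 were higher. After quantile normalization 16 and 20 were lower, and 0 of either list higher. Rpl3 had means of 2185, 1382, 2125, 1429.8 and 1819.8 at 1, 6, 24, 72 and 240 h (limma adjusted p = 0.000763), and the ATP synthase gene Atp5po 1572, 1147, 1587, 924 and 1550.2 (adjusted p = 0.000638). Of 13 reference genes 5 passed as lower, Rpl13a among them (means 705, 595, 916, 670.2 and 924). Sodium and calcium channels ran the other way, with 5 of 18 tested higher and 0 lower, against 422 of 3524 genes higher. After quantile normalization 4 were higher and 0 lower, against 264 of 3530 genes higher. Potassium channels had 4 of 13 tested higher and 0 lower, and after quantile normalization 2 higher and 1 lower. Among sodium and calcium channels Scn8a led (means 76.1, 158, 60.2, 187 and 105, limma adjusted p = 0.000447).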

How the data were processed

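In the deposited file each probe set has 1 linear intensity for each array, and its trimmed means are already nearly equal. How probes were summarised is not stated in the labels. The 15 PBS arrays were scaled to the same 2% trimmed mean, given a floor at their 20th percentile and put on a log2 scale. Of 8799 probe sets, 59 were array controls. Of the other 8740, 7006 named 1 gene, 308 several and 1426 none in the platform annotation, which gave 4736 genes. Probe sets of several genes were left unnamed.

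Times were compared with limma 3.58.1 (R 4.3.3) in 1 fit over 5 groups of 3 arrays (10 residual degrees of freedom). The fit used the 5927 probe sets above the 40th percentile on at least 3 arrays, at a Benjamini-Hochberg adjusted p of 0.05. In a check on simulated data the noise was independent between probe sets and between arrays. That check had no outlying arrays, so it does not show how the fit behaves with the spread seen here. Python 3.11.15 (pandas 2.3.3, matplotlib 3.10.9) served for descriptions and plots. Means by time are arithmetic means of signals ± SD (n = 3). The number of arrays limits the precision. Since separate animals are not stated, p-values reflect only how these arrays vary, which may be technical.

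The members and gene lists were chosen with earlier results of these data known. The text names the 30 genes with the highest mean, the 20 largest and 10 smallest SDs among genes above the upper mark on all arrays, the 10 largest SDs among those above it on at least 3, the leading 5 and the 3 most variable members of each list with those at the floor, the 10 smallest p of each test, and the 5 largest differences each way that passed without overlap in both contrasts; not all are described. Outside this rule, after their values were seen, Alb, Atp5po, Bdnf, Calml4, Camk2a, Cd74, Drd2, Fos, Gal, Grik1, Hspa1a, Kcnj13, Kl, Neurod1, Npy, Nr4a2, Pmch, Pvalb, Rpl13a, Rpl3, Slc1a2, Snap25 and Stmn1 were named. Alternatives were quantile normalization, another floor or filter, all probe sets of a gene, array weights, a replicate block, fits within a set of times, and leaving out each array.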

Additional observations from a re-analysis of the deposited data

How the results depend on the processing

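With the floor at the 10th percentile 39 genes lay at the floor on all arrays, against 193. Array weights raised the calls over the 5 times to 1461 and those of 72 against 6 h to 45. The 9 arrays of 1, 24 and 240 h alone gave 151 calls, and 992 at an unadjusted p under 0.05. The 6 arrays of 6 and 72 h alone gave 0 by limma, and 506 unadjusted. Leaving out each array in turn gave 566 to 972 calls over the 5 times, 162 to 358 among 1, 24 and 240 h, 2 to 5 for 72 against 6 h, and 692 to 1244 for 6 and 72 h against the rest. The lowest counts over the 5 times came without 72 h replicates 1, 2 and 3 (566, 572 and 595) and 6 h replicate 3 (615), and those of 6 and 72 h against the rest without 72 h replicates 3 and 2 (692 and 707) and 6 h replicate 3 (746). Each fit that left out an array also had fewer arrays, and the causes of these changes were not tested. When a gene's probe sets were averaged, 22 of the 30 highest genes stayed among them. Of 900 level values of named genes 881 moved by less than the spread between arrays. Mal passed 72 against 6 h in all 15 fits that left out 1 array, Mobp and Mog in 14 each and Apod in 10.

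Replicate numbers showed no pairing of the arrays. Over 30 pairs of the same number the deviations correlated with r from -0.13 to 0.16, and 3 pairs exceeded 0.1. Over 60 pairs of different numbers r ran from -0.19 to 0.17, and 9 pairs exceeded 0.1. With the replicate number as a block the calls were 780 over the 5 times, 247 among 1, 24 and 240 h, 4 for 72 against 6 h and 1078 for 6 and 72 h against the rest. The deposited signals carry no detection call, so low levels can be set only against control probe sets. These differ: foreign sequences reached 30.2 and the controls whose names end in _st reached 111.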

Other observations

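Among genes above the upper mark on at least 3 arrays, the largest SDs after Ttr belonged to genes that crossed the mark. Rpl30, a ribosomal protein gene, had an SD of 1.19, and at 6, 24, 72 and 240 h replicate 3 was the lowest of the 3 arrays. Adrb3, a beta adrenergic receptor gene known from fat tissue, had means of 13.9, 74.7, 51.2, 56 and 84.2 at 1, 6, 24, 72 and 240 h, lowest at 1 h (17.5, 13.3 and 10.7). Slc6a9, a glycine transporter gene, had 18.8 on 24 h replicate 1, against 126 to 425 on the other arrays. Cebpb, a transcription factor of inflammation and metabolism, averaged 104 ± 3.92 at 240 h and 72.1 ± 4.94 at 72 h (SD, n = 3 each), and passed limma's F test over the 5 times (adjusted p = 0.00771).

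The probe set for 5S ribosomal RNA, an array control, gave 93.0 and 67.5 on 24 h replicates 2 and 3 and 69.5 and 57.0 on 240 h replicates 2 and 3, against 10.7 to 28.1 on the other 11 arrays.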
